A study of Saccharomyces cerevisiae with 18 samples.

Results

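The transcripts of 33 proteasome genes of Saccharomyces cerevisiae were followed over 3 strains and 2 glucose levels. The genes are a list of proteasome subunits and regulators from which genes of chromosome VIII were left out. The rule names genes and sets no threshold on their values. The list was nevertheless chosen with earlier results of these data known, so it is not independent of them. All 33 were measured, each by 1 probe set, among the 5449 genes of the arrays. They comprised 14 genes of the 20S core, 16 genes of the regulatory particle, the transcription factor gene RPN4, the core maturation factor gene UMP1 and the core cap gene BLM10. The core genes were the 7 of the alpha rings (SCL1, PRE5, PRE6, PRE8, PRE9, PRE10, PUP2) and the 7 of the beta rings (PRE1, PRE2, PRE3, PRE4, PRE7, PUP1, PUP3). Those of the regulatory particle were the 6 ATPases RPT1 to RPT6 and 10 subunits without ATPase activity (RPN2, RPN3, RPN5 to RPN9 and RPN11 to RPN13). The members lie on 12 chromosomes, with 6 of them on chromosome IV and 6 on chromosome XV, and none on chromosome VIII.

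The 26S proteasome degrades proteins that carry ubiquitin chains. Its barrel-shaped core holds the proteolytic sites inside its beta rings behind a gate formed by the alpha rings, and the regulatory particle binds the ubiquitinated substrate, removes the ubiquitin, unfolds the protein with its ring of ATPases and feeds it into the core. In yeast the genes of both parts share an activator, Rpn4, a short-lived protein that the proteasome itself degrades, so that less proteasome activity allows more Rpn4 to accumulate.

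Each group held 3 arrays, and the labels call these biological replicates without saying how the cultures were related, so p-values measure the spread between these samples. All strains were snf1Δ mutants, that is, they lacked the chromosomal gene of Snf1, the yeast AMP-activated kinase that yeast needs to use carbon sources other than glucose, and each carried 1 plasmid. The Snf1 strain, the reference, carried HA-Snf1. The Alpha1 strain carried HA-Alpha1, a fusion of the kinase domain of the mammalian AMPK Alpha1 subunit with the regulatory part of Snf1, and the T210A strain carried HA-T210A, Snf1 whose phosphorylated activation site is changed to alanine. Cultures grew with air in 1 litre bioreactors at 30 °C and pH 5.0 from 40 g/L glucose, and cells were taken at 15 to 20 g/L (high glucose) or at 5 g/L (low glucose). Since all cultures started from 40 g/L, low-glucose cells also came from a later stage of the culture. Effects of glucose level and of culture stage cannot be told apart, and differences named after glucose below hold both. Plasmid copy number and the number of transformants behind a strain are not given in the sources used here. In these bulk cultures, a lower signal in every cell and a lower share of cells that hold the transcript cannot be told apart.

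Signals are log2 values per probe set, and array medians ran from 6.77 to 7.03. The probe set of SNF1 read 7.06 to 7.31 in the Snf1 strain at high glucose, 8.44 to 8.74 at low glucose, 12.30 to 12.46 and 12.69 to 13.17 in the Alpha1 strain, and 6.93 to 7.25 and 9.16 to 9.52 in the T210A strain. It may read the plasmids, so it is no check of the deletion. Arrays of a group correlated at 0.978 to 0.998 across genes. The median SD of all genes within a group was 0.104 to 0.125, except in the Alpha1 strain at low glucose (0.221), and that of the members was 0.0674 to 0.131. In the T210A strain the 261 genes of chromosome VIII stood above the Snf1 strain by a median of 0.74 at high and 0.574 at low glucose on the log2 scale. No member lies there, and leaving these genes out changed no call of a member. That step leaves the values of the members as they are, so little could change. Whether the shift of chromosome VIII bears on genes elsewhere was not tested. Precision is limited by how many arrays there are.

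The proteasome genes differed between low and high glucose in opposite directions in different strains. In the Snf1 strain 20 of the 33 rose and none fell, in the Alpha1 strain 18 rose and none fell, and in the T210A strain 24 fell and 1, RPN4, rose. Of all genes 34.7%, 34.3% and 37.7% rose in the Snf1, Alpha1 and T210A strains, and 32.7%, 29.2% and 32.8% fell. Here a gene rose or fell when limma's moderated test gave an adjusted p under 0.05 over all 5449 genes. The differences were moderate, with medians over the members of 0.24, 0.27 and -0.34 on the log2 scale, against 0.00, 0.03 and 0.04 for all genes. At high glucose no member was called between any pair of strains, where 0.918% to 6.31% of all genes were.

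**Figure D1:**
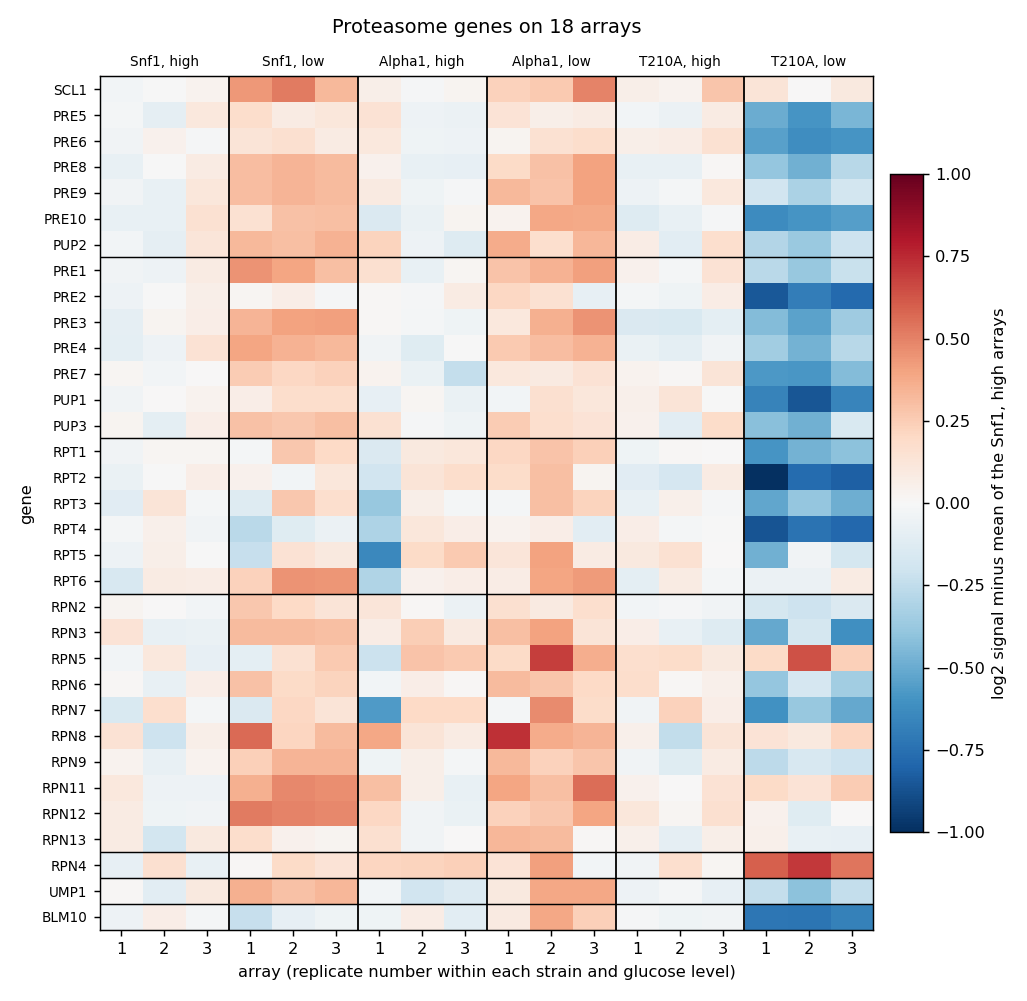
Heat map of the 33 genes (rows, grouped as alpha ring, beta ring, ATPases, non-ATPase subunits, RPN4, UMP1 and BLM10) on the 18 arrays (columns), coloured by log2 signal minus the mean of the 3 Snf1 arrays at high glucose. The T210A arrays at low glucose are blue for most genes and red for RPN4, while the low-glucose arrays of the Snf1 and Alpha1 strains are mostly red.

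RPN4 itself was highest in the T210A strain at low glucose. Its log2 signals there were 8.77, 8.88 and 8.71, against 8.14, 8.34 and 8.20 at high glucose. They were 8.10, 8.33 and 8.10 at high and 8.19, 8.36 and 8.31 at low glucose in the Snf1 strain. In the Alpha1 strain they were 8.39, 8.40 and 8.41 at high and 8.31, 8.59 and 8.15 at low glucose. The 3 T210A arrays at low glucose thus lay above the other 15 arrays, as those of this group did for 11.2% of all genes, while the arrays of the other 5 groups ran from 8.10 to 8.59. RPN4 rose with low glucose in the T210A strain (0.56 ± 0.10, adjusted p = 0.00019, 1.48-fold; differences are log2 ± SE, n = 3 arrays per group). It did not pass the test in the Snf1 strain (0.11 ± 0.10, adjusted p = 0.345) or the Alpha1 strain (-0.05 ± 0.10, adjusted p = 0.695). Among the strains at low glucose it was higher in T210A than in Snf1 (0.50 ± 0.10, adjusted p = 0.000749) and lower in Alpha1 than in T210A (-0.44 ± 0.10, adjusted p = 0.00326). The call between Alpha1 and T210A was lost when only the 2 groups compared were fitted (adjusted p = 0.0655).

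In the Snf1 strain most core genes and part of the regulatory particle rose. Of the 14 core genes 11 rose with low glucose, and of the 16 genes of the regulatory particle 8 did, with medians of 0.30 and 0.17, and UMP1 rose too. The share of all genes that rose was 34.7%, and 32.7% fell. Within the regulatory particle 1 of the 6 ATPases and 7 of the 10 other subunits rose. The difference between core and regulatory particle was not tested, since the genes are no replicates of a condition. The median SE was 0.0663 over the core genes and 0.1 over those of the regulatory particle, in this and the other strains. A difference of a given size therefore passed the test less readily in the regulatory particle.

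The largest increases among the core genes of the Snf1 strain were those of SCL1 in the alpha ring and PRE3, the beta subunit with caspase-like activity. SCL1 read 10.42, 10.44 and 10.48 at high and 10.88, 10.97 and 10.77 at low glucose, with no overlap (0.43 ± 0.08, adjusted p = 0.000245). PRE3 read 10.55, 10.66 and 10.70 at high and 10.98, 11.04 and 11.04 at low glucose (0.38 ± 0.07, adjusted p = 0.000365). Both genes thus stood higher on all 3 low-glucose arrays, by 1.34-fold and 1.31-fold on the linear scale. RPN12, a lid subunit, rose from 9.33, 9.21 and 9.22 at high to 9.77, 9.75 and 9.73 at low glucose (0.50 ± 0.07, adjusted p = 2.72e-05). Its increase was the largest of the 33. The ATPase RPT6 rose from 9.80, 10.04 and 10.03 at high to 10.19, 10.41 and 10.40 at low glucose (0.37 ± 0.12, adjusted p = 0.0117), but this call was lost without Snf1 high-glucose replicate 1 (adjusted p = 0.0586) and after quantile normalization (adjusted p = 0.0541). RPT4 (-0.15) and BLM10 (-0.12) had negative differences that were not called, and PRE2, the beta subunit with chymotrypsin-like activity, stayed at 0.03 ± 0.07. The count for this strain depended on the scaling of the arrays. After quantile normalization 10 members rose and 2 fell (RPT4 and BLM10), and after centring each array on its median 12 rose and none fell. Shares of all genes were not counted under these settings, and 34.7% rose with the deposited scaling. These counts are therefore not set apart from the background. The member medians were 0.0981 and 0.205, beside -0.0201 and -0.0313 for all genes. With the replicate number as a block, 20 rose, with PRE6 no longer called (adjusted p = 0.0628) and RPT1 called (adjusted p = 0.0178).

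In the Alpha1 strain 9 of 14 core genes and 7 of 16 genes of the regulatory particle rose, beside UMP1 and BLM10, where 34.3% of all genes rose and 29.2% fell. The medians of core and regulatory particle were 0.29 and 0.265. PRE8 of the alpha ring read 10.31, 10.20 and 10.19 at high and 10.46, 10.56 and 10.67 at low glucose (0.33 ± 0.06, adjusted p = 0.000394). PRE4 of the beta ring read 10.21, 10.12 and 10.24 at high and 10.50, 10.55 and 10.59 at low glucose (0.36 ± 0.06, adjusted p = 0.000164). In both genes the 3 low-glucose arrays were the higher ones. RPN11, the metalloprotease that removes ubiquitin chains at the entry of the core, read 9.59, 9.35 and 9.22 at high and 9.69, 9.60 and 9.86 at low glucose (0.33 ± 0.09, adjusted p = 0.00576), so that its groups did not overlap. RPT6 read 9.66, 10.00 and 10.02 at high and 10.03, 10.36 and 10.39 at low glucose (0.36 ± 0.12, adjusted p = 0.0142), with no overlap.

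Fewer members passed the test in the Alpha1 strain under other settings: 9 with only its 2 groups fitted, 10 after quantile normalization and 8 after centring the arrays. Shares of all genes were not counted under these settings, and 34.3% rose in the fit of all arrays as deposited. These counts are therefore not set apart from the background. After quantile normalization and centring the member medians were 0.136 and 0.183, beside -0.0604 and -0.053 for all genes. With the replicate number as a block the number was 22, with RPT3, RPN5, RPN7 and RPN8 gained (adjusted p = 0.00197, 0.0324, 0.0449 and 0.0174). The RPT6 call was lost without Alpha1 high-glucose replicate 1 (adjusted p = 0.0759) and without low-glucose replicates 2 (0.0523) or 3 (0.0627). The RPN11 and RPT6 calls were lost with only the 2 groups fitted (adjusted p = 0.0849 and 0.103). Quantile normalization lost both as well (adjusted p = 0.0741 and 0.0742). Centring the arrays lost that of RPN11 (adjusted p = 0.0757) and array weights that of RPT6 (adjusted p = 0.054).

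In the T210A strain 13 of 14 core genes fell with low glucose and 9 of 16 genes of the regulatory particle did, with medians of -0.37 and -0.25, and UMP1 and BLM10 fell too. Over all genes 32.8% fell and 37.7% rose. The 7 beta ring genes all fell, with differences of -0.30 to -0.785, and SCL1 was the only core gene that was not called (-0.05 ± 0.08, adjusted p = 0.6). Of the regulatory particle, RPT5, RPT6, RPN5, RPN8, RPN11, RPN12 and RPN13 were not called.

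PUP1, the beta subunit with trypsin-like activity, read 10.03, 10.11 and 9.98 at high and 9.31, 9.13 and 9.32 at low glucose in the T210A strain, a fall of 0.78 ± 0.06 (adjusted p = 9.77e-08). PRE6 of the alpha ring read 10.77, 10.78 and 10.86 at high and 10.17, 10.09 and 10.12 at low glucose (-0.68 ± 0.05, adjusted p = 7.05e-08). The ATPase RPT4 read 10.09, 10.00 and 10.02 at high and 9.16, 9.28 and 9.23 at low glucose (-0.81 ± 0.09, adjusted p = 3.36e-06). In these 3 genes every low-glucose array lay more than 0.5 log2 units below every high-glucose array. RPN7, a lid subunit, read 9.68, 9.95 and 9.79 at high and 9.11, 9.34 and 9.21 at low glucose (-0.58 ± 0.19, adjusted p = 0.0137), and its call was lost without T210A high-glucose replicate 2 (adjusted p = 0.0517). RPN2, a scaffold of the base of the regulatory particle, fell by a small amount (-0.15 ± 0.05, adjusted p = 0.0103), and its call was lost with an intensity trend and robust prior (adjusted p = 0.057) and with dim genes left out (0.0829).

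**Figure D2:**
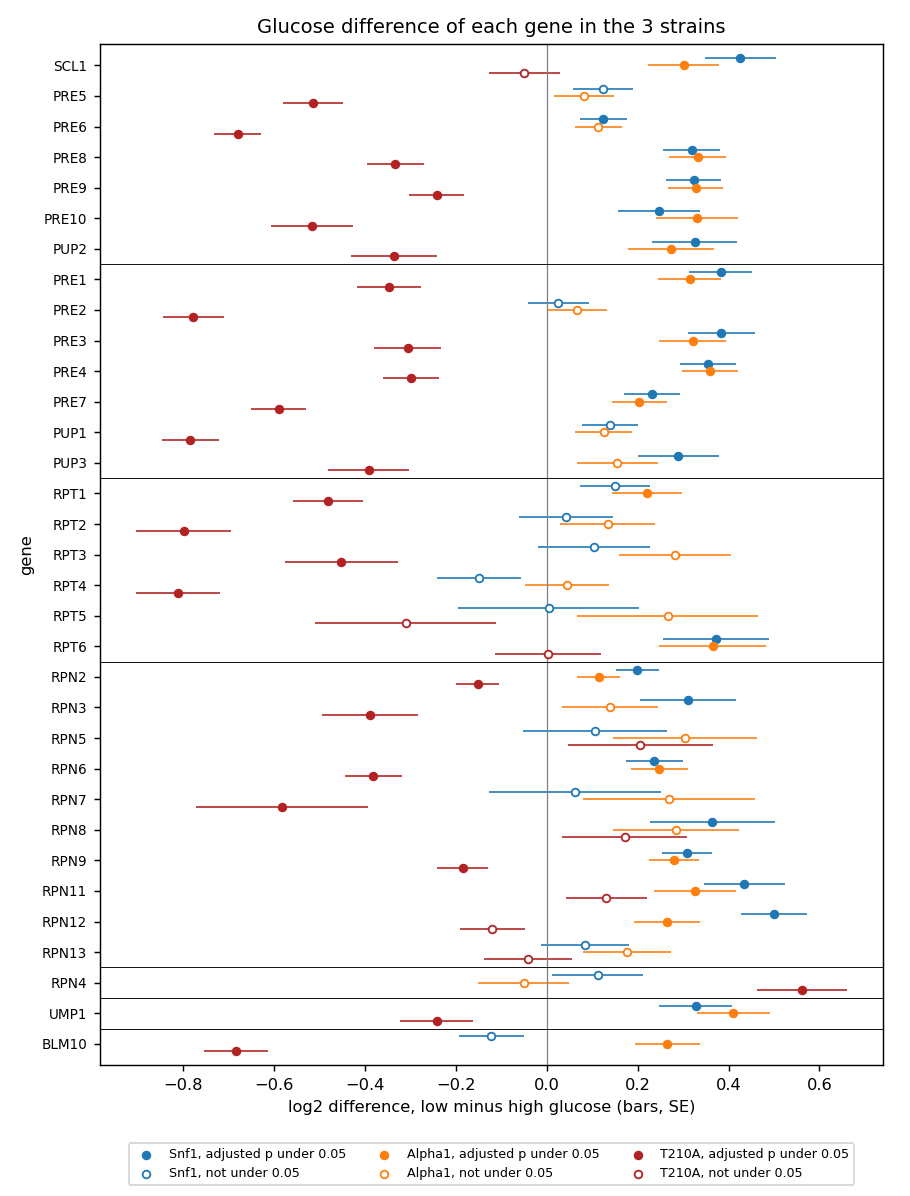
Difference between low and high glucose (log2, bars are the SE of the model) for each of the 33 genes in the Snf1 (blue), Alpha1 (orange) and T210A (red) strains, with filled points where the adjusted p is under 0.05. Most blue and orange points lie right of 0 and most red points left of it, with RPN4 as the filled red point on the right.

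At low glucose the T210A strain had less proteasome transcript than the Snf1 strain. Of the 33 members 28 were lower and RPN4 was higher, against 26.5% of all genes lower and 29.7% higher, and the median difference was -0.62, which is 1.53-fold lower. All 14 core genes were lower (-0.35 to -0.87, median -0.70). Of the regulatory particle 12 of 16 were lower, 5 of 6 ATPases (median -0.605) and 7 of 10 other subunits (median -0.45). The differences were more alike over the core genes (SD 0.134) than over those of the regulatory particle (SD 0.279), which is a description of these genes and carries no test. The core genes also had smaller SEs, with a median of 0.0663 against 0.11 for the ATPases and 0.0934 for the other subunits. How far this accounts for the wider spread or the smaller share called in the regulatory particle was not tested. UMP1 (-0.62 ± 0.08, adjusted p = 1.78e-05) and BLM10 (-0.59 ± 0.07, adjusted p = 9.78e-06) were lower as well.

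PRE10 of the alpha ring read 11.12, 11.26 and 11.27 in the Snf1 strain and 10.34, 10.38 and 10.42 in the T210A strain at low glucose (-0.84 ± 0.09, adjusted p = 3.39e-06). PUP1 read 10.05, 10.15 and 10.16 in the Snf1 strain (-0.87 ± 0.06, adjusted p = 8.16e-08), above the T210A arrays given before. RPT2, an ATPase whose tail helps to open the gate of the core, read 9.61, 9.54 and 9.69 in Snf1 and 8.56, 8.81 and 8.75 in T210A (-0.91 ± 0.10, adjusted p = 6.08e-06, 1.88-fold lower). In all 3 genes the groups were apart by more than their own spread. RPN3, a lid subunit, read 8.94, 8.93 and 8.92 in Snf1 and 8.11, 8.44 and 8.00 in T210A (-0.75 ± 0.11, adjusted p = 4.21e-05). Its replicate 2 in T210A was the highest of that group and still lay below the 3 Snf1 arrays.

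4 genes of the regulatory particle were not called between these groups. RPT5 differed by -0.23 ± 0.20, adjusted p = 0.344, RPN8, the partner of the RPN11 protein, by -0.21 ± 0.14, adjusted p = 0.207 and RPN13, a ubiquitin receptor, by -0.12 ± 0.10, adjusted p = 0.327. The lid subunit gene RPN5 had the only positive difference of the 30 subunit genes (0.25 ± 0.16, adjusted p = 0.203), with an interval of -0.09 to 0.59. Its T210A arrays at low glucose read 8.94, 9.38 and 8.98, against 8.65, 8.90 and 9.01 in Snf1, so that the groups overlapped.

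At low glucose the Alpha1 strain differed from T210A in most members and from Snf1 in 1. Against T210A, 27 of the 33 members were higher and RPN4 was lower, where 20.8% of all genes were higher and 20.8% lower, with a median over the members of 0.61. PRE2 read 10.94, 10.89 and 10.65 in Alpha1 and 9.89, 10.04 and 9.96 in T210A (0.87 ± 0.07, adjusted p = 4.13e-07). PRE10 read 11.01, 11.35 and 11.35 in Alpha1 (0.86 ± 0.09, adjusted p = 6.92e-06) and RPN3 8.92, 9.02 and 8.75 (0.71 ± 0.11, adjusted p = 0.000129). RPT2 read 9.76, 9.88 and 9.60 and had the largest difference (1.04 ± 0.10, adjusted p = 4.6e-06). The Alpha1 arrays of these 4 genes all lay above the T210A arrays. With the replicate number as a block RPN8, RPN13 and RPT5 passed as well (adjusted p = 0.012, 0.0213 and 0.0367), for 30 higher and 1 lower.

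Between Alpha1 and Snf1 at low glucose 1 of the 33 members was called, while 30.0% of all genes were called and 17.0% were higher. That gene was BLM10 (0.36 ± 0.07, adjusted p = 0.00175), whose call was lost with only the 2 groups fitted (adjusted p = 0.088). The median over the members was -0.02. For 29 members the 95% interval of the difference lay within 0.5 log2 units of 0, that is within 1.41-fold, the exceptions being RPN5, RPN7, RPT5 and BLM10. This bound is wide for these genes. In the glucose comparisons of Snf1 and Alpha1, where 20 and 18 members were called, 24 lay within it in each strain. It therefore does not exclude differences as large as those between glucose levels. RPN12 came next to the threshold (-0.20 ± 0.07, adjusted p = 0.0507) and was called without Alpha1 high-glucose replicate 1 (adjusted p = 0.0178) or 3 (0.0469), Alpha1 low-glucose replicate 3 (0.0261) or T210A low-glucose replicate 2 (0.0473). Leaving out 1 array thus gave 1 to 3 called members, the highest number, with PRE2 as the third, without Alpha1 low-glucose replicate 3.

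The glucose response of a strain is its difference between low and high glucose, and the responses were compared between strains. For T210A minus Snf1, 25 of 33 members had a lower response and RPN4 a higher one, against 18.3% of all genes lower and 21.2% higher. All 14 core genes were among the lower ones, and 9 of 16 genes of the regulatory particle, with medians of -0.69 and -0.525. The largest differences by class were those of PUP1 (-0.92 ± 0.09, adjusted p = 3.69e-06), PRE6 (-0.80 ± 0.07, adjusted p = 2.64e-06), RPT2 (-0.84 ± 0.15, adjusted p = 0.000509) and RPN3 (-0.70 ± 0.15, adjusted p = 0.00217). The arrays behind these values show both parts of the difference. PRE6 read 10.67, 10.75 and 10.70 in Snf1 at high and 10.83, 10.87 and 10.79 at low glucose. PUP1 read 9.94, 9.98 and 10.02 in Snf1 at high glucose. In both genes the Snf1 arrays at low glucose lay above those at high glucose, while the T210A arrays at low glucose lay below all of them. RPT2 read 9.51, 9.57 and 9.64 in Snf1 and 9.46, 9.41 and 9.66 in T210A at high glucose. RPN3 read 8.76, 8.55 and 8.55 in Snf1 and 8.69, 8.55 and 8.49 in T210A at high glucose. At high glucose the arrays of both strains overlapped in PUP1, RPT2 and RPN3, and in PRE6 the T210A arrays lay just above those of Snf1.

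For RPN4 the response was higher in T210A than in Snf1 by 0.45 ± 0.14, adjusted p = 0.0216, and leaving out any of 4 arrays lost this call. These were Snf1 high-glucose replicate 2 (adjusted p = 0.0561), Snf1 low-glucose replicate 1 (0.054), T210A high-glucose replicate 1 (0.0544) and T210A low-glucose replicate 2 (0.0533). The response of Alpha1 minus that of T210A was lower for RPN4 (-0.61 ± 0.14, adjusted p = 0.00738), a call that held under every alternative run. The 2 response tests share the T210A arrays and are not independent.

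For Alpha1 minus T210A, 26 members had a higher response and RPN4 a lower one, where 10.9% of all genes were higher and 9.41% lower. The largest by class of subunit were PRE10 of the alpha ring (0.85 ± 0.13, adjusted p = 0.000415), PUP1 of the beta ring (0.91 ± 0.09, adjusted p = 1.25e-05), RPT2 of the ATPases (0.93 ± 0.15, adjusted p = 0.000572) and RPN7 of the other subunits (0.85 ± 0.27, adjusted p = 0.0387). PRE10 read 10.82, 10.90 and 11.00 at high glucose in Alpha1 and 10.84, 10.89 and 10.96 in T210A. PUP1 read 9.90, 10.00 and 9.92 at high and 9.96, 10.14 and 10.09 at low glucose in Alpha1. RPT2 read 9.38, 9.70 and 9.75 at high glucose in Alpha1. At high glucose the arrays of Alpha1 and T210A overlapped in all 3 genes. RPN7 read 9.15, 9.92 and 9.92 at high and 9.70, 10.19 and 9.90 at low glucose in Alpha1, so that 1 high-glucose array stood well below the rest. Its call was lost without that array (Alpha1 high-glucose replicate 1, adjusted p = 0.0535). It was also lost without Alpha1 low-glucose replicates 2 (0.0727) or 3 (0.0519), Snf1 replicates 3 at high (0.0504) or low glucose (0.0511), T210A high-glucose replicates 2 (0.0881) or 3 (0.0661), and T210A low-glucose replicates 1 (0.0858) or 3 (0.072). With only the groups of these strains fitted (adjusted p = 0.0881) or with array weights (adjusted p = 0.0534) the RPN7 call was lost too.

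The responses of Alpha1 and Snf1 differed in 1 member, BLM10 (0.39 ± 0.10, adjusted p = 0.0204), where 13.7% of all genes were called and 9.32% were higher in Alpha1. For 27 of the 33 members the 95% interval of this difference lay within 0.5 log2 units of 0, and for RPN5, RPN7, RPN8, RPT3, RPT5 and BLM10 it reached beyond. That bound does not exclude differences as large as those between glucose levels, where 24 members lay within it in Snf1 and in Alpha1. Absence of a call in the remaining genes does not show that the responses were equal. The BLM10 call was lost with only the 4 groups of these strains fitted (adjusted p = 0.0817), and without Alpha1 high-glucose replicate 3 (0.0543), Snf1 high-glucose replicate 2 (0.0513) or Snf1 low-glucose replicate 1 (0.0522).

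BLM10 encodes an alternative cap that binds the ends of the core in place of the regulatory particle, and its transcript changed in different directions in the strains. In the Snf1 strain it read 7.51, 7.63 and 7.54 at high and 7.33, 7.48 and 7.52 at low glucose (-0.12 ± 0.07, adjusted p = 0.146). In the Alpha1 strain it read 7.52, 7.63 and 7.46 at high and 7.65, 7.95 and 7.80 at low glucose, an increase of 0.27 ± 0.07, adjusted p = 0.00492, although this call was lost with only these 2 groups fitted (adjusted p = 0.0764). In the T210A strain it read 7.55, 7.52 and 7.53 at high and 6.84, 6.83 and 6.89 at low glucose, a fall (-0.68 ± 0.07, adjusted p = 1.37e-06). The Alpha1 arrays at low glucose were the 3 highest of all 18 and the T210A arrays at low glucose the 3 lowest. The response of Alpha1 minus T210A came to 0.95 ± 0.10, adjusted p = 2.68e-05, the largest of the 33, and that of T210A minus Snf1 to -0.56 ± 0.10, adjusted p = 0.000621.

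UMP1 encodes a chaperone that is enclosed in the maturing core and becomes its first substrate. It read 9.13, 9.01 and 9.22 at high and 9.47, 9.42 and 9.45 at low glucose in the Snf1 strain (0.33 ± 0.08, adjusted p = 0.00236). It read 9.09, 8.92 and 8.98 at high and 9.21, 9.50 and 9.51 at low glucose in the Alpha1 strain (0.41 ± 0.08, adjusted p = 0.000485); in the T210A strain it read 9.07, 9.10 and 9.03 at high and 8.88, 8.71 and 8.88 at low glucose (-0.24 ± 0.08, adjusted p = 0.015). UMP1 moved in the direction of most core genes in all 3 strains. Its fall in T210A was not called without T210A low-glucose replicate 2 (adjusted p = 0.072). The response of T210A minus Snf1 was -0.57 ± 0.11, adjusted p = 0.00131 and that of Alpha1 minus T210A 0.65 ± 0.11, adjusted p = 0.00116.

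Over the 6 groups, the T210A strain at low glucose had the lowest mean in 27 of the 33 members and in 21.7% of all genes. Its 3 arrays lay below the other 15 in 23 members, against 9.6% of all genes, namely in 13 core genes, 4 ATPases (RPT1 to RPT4), RPN2, RPN3, RPN6, RPN9, UMP1 and BLM10. The highest mean was that of Snf1 at low glucose in 18 members and 24.2% of all genes, and that of Alpha1 at low glucose in 13 members and 9.16% of all genes.

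**Figure D3:**
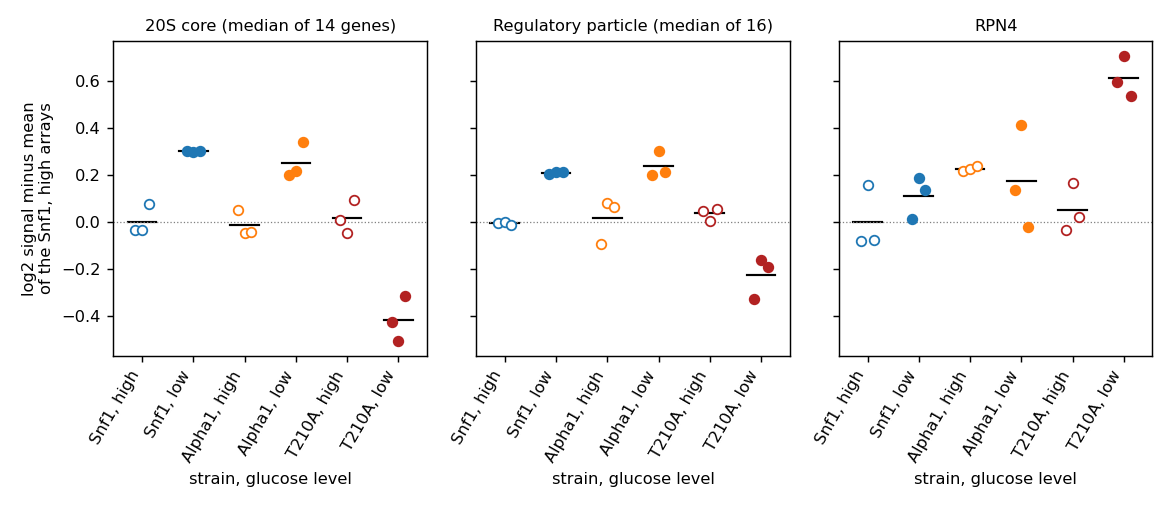
Median over the 14 core genes (left), median over the 16 regulatory particle genes (middle) and RPN4 (right) on each of the 18 arrays, as log2 signal minus the mean of the Snf1 arrays at high glucose; points are arrays and lines are means of 3. Core and regulatory particle are lowest and RPN4 is highest on the 3 T210A arrays at low glucose.

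Set against the mean of the Snf1 arrays at high glucose, the median of the core genes lay at 0.297 to 0.302 on the Snf1 arrays at low glucose, at 0.199 to 0.34 on those of Alpha1 and at -0.508 to -0.316 on those of T210A. The median of the regulatory particle lay at 0.203 to 0.212, 0.2 to 0.303 and -0.326 to -0.164 on the same arrays. Core minus regulatory particle was 0.0859 to 0.0968 on the Snf1 arrays at low and -0.0332 to 0.0874 on those at high glucose, so that these ranges overlapped. It was -0.345 to -0.0985 in T210A at low glucose, below the -0.0544 to 0.0381 of that strain at high glucose. In Alpha1 it lay on both sides of 0, at -0.127 to 0.144 at high and -0.0883 to 0.129 at low glucose. The median of all genes stayed between -0.0489 and 0.131 on all arrays of the 6 groups, with the highest value in Alpha1 at low glucose.

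At high glucose no difference between the strains in these genes passed the test. No member was called by limma for Alpha1 against Snf1 (0.918% of all genes called), for T210A against Snf1 (4.18%) or for Alpha1 against T210A (6.31%). These shares are small, so the lack of calls among 33 genes is near them and does not set the members apart. The shares with T210A also include genes of chromosome VIII, where no member lies. At an unadjusted p under 0.05 there was 1 member in the first comparison, RPN4 (0.23 ± 0.10), none in the second, and 1 in the third, PRE7 (-0.15 ± 0.06). With array weights 2 members were called for Alpha1 against Snf1 (PRE7 and RPN4) and 5 for Alpha1 against T210A (PRE6, PRE7, RPN12, RPN4 and RPT2). The 95% interval of the difference lay within 0.5 log2 units of 0 in 33 members for Alpha1 against Snf1, in 32 for T210A against Snf1 (not RPT5) and in 30 for Alpha1 against T210A (not RPN7, RPN8 and RPT5). Between glucose levels 24 members lay within this bound in Snf1 and in Alpha1, so it does not exclude differences of that size.

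3 further subunit genes, RPN1, RPN10 and SEM1, were not among the 33. RPN1 and RPN10 encode ubiquitin receptors of the regulatory particle and lie on chromosome VIII. At high glucose both stood higher in T210A than in Snf1 (0.70 ± 0.06, adjusted p = 1.6e-05, and 0.75 ± 0.08, adjusted p = 9.83e-05), beside the chromosome's median of 0.74. RPN1 read 10.83, 10.84 and 10.78 at high and 9.99, 10.14 and 9.96 at low glucose in T210A, a fall of 0.79 ± 0.06 (adjusted p = 7.89e-08). RPN10 read 10.74, 10.68 and 10.65 at high and 10.31, 10.24 and 10.37 at low glucose (-0.38 ± 0.08, adjusted p = 0.00108). At low glucose neither differed from Snf1 by the test (0.01 ± 0.06, adjusted p = 0.889, and -0.03 ± 0.08, adjusted p = 0.835), while the median of chromosome VIII was still 0.574 higher. Their responses in T210A minus Snf1, -0.69 ± 0.09 and -0.78 ± 0.12, lay within the range of the core genes (-0.475 to -0.92), and the median response of chromosome VIII genes was 0.0194. SEM1, a small lid subunit, was lower in T210A than in Snf1 at low glucose (-0.60 ± 0.22, adjusted p = 0.0305). This call was lost after quantile normalization (adjusted p = 0.0579) and without Snf1 low-glucose replicates 1 (0.119) or 3 (0.0643) or T210A low-glucose replicates 2 (0.101) or 3 (0.0598).

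Outside the 33, other genes of the ubiquitin system were followed in 5 lists. Of all genes, 34.7% rose and 32.7% fell with low glucose in Snf1, 34.3% and 29.2% in Alpha1, and 37.7% and 32.8% in T210A. Of 12 genes of ubiquitin, its activation, shuttle factors and the Cdc48 complex, 5 rose and 2 fell with low glucose in Snf1, 7 rose in Alpha1, and 1 rose and 4 fell in T210A. UBI4, the stress-induced polyubiquitin gene, rose in all 3 strains (2.26 ± 0.09, adjusted p = 5.63e-11 in Snf1, 2.27 ± 0.09, adjusted p = 1.53e-10 in Alpha1 and 1.75 ± 0.09, adjusted p = 1.61e-09 in T210A). At low glucose 7 of the 12 were lower in T210A than in Snf1 and 1 was higher (median -0.40), against 26.5% and 29.7% of all genes. The lower ones included DDI1, a shuttle factor with a protease fold (-1.26 ± 0.14, adjusted p = 5.07e-06), DSK2, another shuttle factor (-0.80 ± 0.10, adjusted p = 1.62e-05), and SHP1, a cofactor of Cdc48 (-0.79 ± 0.09, adjusted p = 3.27e-06). Against Alpha1 at low glucose, 9 of the 12 were lower in T210A, as were 20.8% of all genes. The response of these 3 genes was also lower in T210A than in Snf1 (-1.19 ± 0.20, -0.87 ± 0.14 and -0.78 ± 0.12).

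Most genes of assembly chaperones and associated proteins of the proteasome rose with low glucose. Of the 13 genes of this list 9 rose and 2 fell in Snf1, 10 rose and 2 fell in Alpha1, and 8 rose and 2 fell in T210A, with medians of 0.455, 0.405 and 0.52. The shares of all genes that rose were 34.7%, 34.3% and 37.7%, and 32.7%, 29.2% and 32.8% fell. TMA17, a chaperone of ATPase ring assembly, rose most, by 3.24 ± 0.13, adjusted p = 6.47e-11 in Snf1, 3.24 ± 0.13, adjusted p = 1.72e-10 in Alpha1 and 3.01 ± 0.13, adjusted p = 3.61e-10 in T210A. NAS2, another chaperone of the base, rose by 1.19 ± 0.12, 0.90 ± 0.12 and 1.17 ± 0.12 in the same order. Between T210A and Snf1 at low glucose 3 genes of the list were higher and 2 lower, where 29.7% of all genes were higher and 26.5% lower. The core assembly chaperone genes ADD66 (0.55 ± 0.14, adjusted p = 0.00467) and IRC25 (0.53 ± 0.08, adjusted p = 4.73e-05) were higher, while PBA1 (-0.13 ± 0.13, adjusted p = 0.427) and POC4 (-0.19 ± 0.09, adjusted p = 0.0839), which encode the partners of their products, were not called. ECM29, which tethers the core to the regulatory particle, was lower (-0.61 ± 0.11, adjusted p = 0.000251). ECM29 lies on chromosome VIII, whose median in this comparison was 0.574 higher, and at high glucose it stood higher in T210A than in Snf1 (0.78 ± 0.11, adjusted p = 0.000369). The core genes themselves were all lower in this comparison, as given above.

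**Figure D4:**
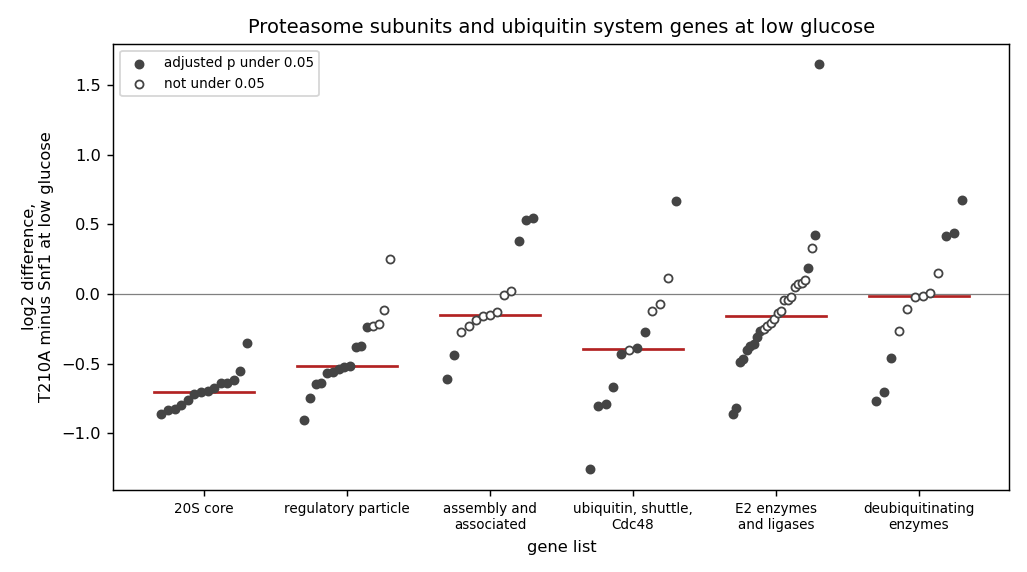
Difference between T210A and Snf1 at low glucose (log2) for the genes of 6 lists; each point is a gene, filled where the adjusted p is under 0.05, and lines are medians of the lists. The 14 core genes all lie below 0, while the assembly, conjugating and deubiquitinating genes lie on both sides.

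Among 26 ubiquitin-conjugating enzymes and ligases, 16 rose and 4 fell in Snf1, 17 rose and 2 fell in Alpha1, and 16 rose and 6 fell in T210A. The shares of all genes that rose were 34.7%, 34.3% and 37.7%, and 32.7%, 29.2% and 32.8% fell. Genes of the GID ligase system, which marks gluconeogenic enzymes for degradation when glucose returns, had the largest increases. FYV10 rose by 2.48 ± 0.15 in Snf1, 2.12 ± 0.15 in Alpha1 and 2.43 ± 0.15 in T210A, and the conjugating enzyme gene UBC8 by 2.56 ± 0.11, 1.94 ± 0.11 and 1.80 ± 0.11. The signals of FYV10 at high glucose were low (4.01 to 4.67). At low glucose 3 of the 26 were higher in T210A than in Snf1 and 9 lower, where 29.7% of all genes were higher and 26.5% lower. UBC11 was higher (1.65 ± 0.15, adjusted p = 9.25e-07), UBC8 lower (-0.82 ± 0.11, adjusted p = 3.7e-05), and UBC5, a stress-related conjugating enzyme, lower (-0.86 ± 0.14, adjusted p = 0.00012). UBC11 was dim, with signals of 2.75 to 4.85 over all arrays beside a lowest value of 2.246 in the data. Of 12 deubiquitinating enzymes 6 rose and 6 fell in Snf1, 5 rose and 4 fell in Alpha1, and 2 rose and 6 fell in T210A, with UBP15 among those called in each strain (1.16 ± 0.11, 0.99 ± 0.11 and 0.80 ± 0.11). At low glucose 3 of these 12 were higher and 3 lower in T210A than in Snf1, which is near the 29.7% and 26.5% of all genes.

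4 transcription factors are known to bind the RPN4 promoter, namely Hsf1, Yap1, Pdr1 and Pdr3. In T210A HSF1 rose with low glucose (0.71 ± 0.13, adjusted p = 0.000247) while YAP1 (-0.50 ± 0.09, adjusted p = 0.000341) and PDR1 (-0.48 ± 0.07, adjusted p = 3.17e-05) fell, and PDR3 was not called (0.17 ± 0.18, adjusted p = 0.433). HSF1 read 7.37, 7.31 and 7.38 in T210A and 6.80, 6.96 and 6.80 in Snf1 at low glucose, without overlap (0.50 ± 0.13, adjusted p = 0.00502). YAP1 (-0.74 ± 0.09, adjusted p = 1.64e-05) and PDR1 (-0.58 ± 0.07, adjusted p = 8.71e-06) were lower in T210A in that comparison. In Alpha1 HSF1 rose (0.42 ± 0.13, adjusted p = 0.0127), a call lost with only the 2 groups fitted (adjusted p = 0.123), without Alpha1 high-glucose replicate 1 (0.0547) and without low-glucose replicate 2 (0.063). UBR2, MUB1 and RAD6 encode the ligase, its partner and the conjugating enzyme that mark Rpn4 for degradation. Between T210A and Snf1 at low glucose UBR2 (-0.13 ± 0.17, adjusted p = 0.563) and MUB1 (-0.25 ± 0.11, adjusted p = 0.0747) were not called, although both passed, lower in T210A, after quantile normalization (adjusted p = 0.00514 and 0.00273), and RAD6 was higher in T210A (0.42 ± 0.08, adjusted p = 0.000677). These are transcript levels, and the level of the Rpn4 protein was not measured.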

How the data were processed

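The authors deposited 1 log2 signal for each probe set and array, made with RMA and the affy package per the submitters' processing notes; no further scaling was applied here. Versions and a genome build are not given in the sources used here. Of 5716 probe sets, 5498 named 1 gene and 218 none in the platform annotation, and 12 symbols were updated. For 47 genes the probe set with the highest mean was taken, which left 5449 genes. The locus and neighbours of the 33 members were matched in a RefSeq gene table.

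Samples were grouped by strain and glucose level from the labels. A mean per group was fitted over all 18 arrays with limma 3.58.1 in R 4.3.3 (12 residual degrees of freedom, prior 1.18) and Benjamini-Hochberg adjustment over all genes of each of the 12 comparisons. The code was tested on simulated data. The members and lists were chosen with earlier results of these data known. Array values are given for RPN4, UMP1, BLM10 and, per comparison, the called member with the largest difference in each class and any called against the majority. Up to 3 called genes of each other list are named, plus genes named by rule. Alternatives changed the variance prior, the arrays fitted, normalization, probe sets, dim genes (mean below 5), chromosome VIII genes, array weights and single arrays.

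Same-numbered replicates may be paired: in 8 of 15 pairs of groups every correlation of their deviations was above 0.1. Among the comparisons these were the glucose comparisons of Snf1 (lowest 0.2) and Alpha1 (0.11), T210A against Snf1 at high (0.38) and low glucose (0.24), and Alpha1 against T210A at low glucose (0.13).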

Additional observations from a re-analysis of the deposited data

Results flagged for a closer look

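The glucose responses of the strains differed by the interaction test in limma. For T210A minus Snf1, 26 members were called, where 18.3% of all genes were lower and 21.2% higher. The differences were -0.80 for PRE6, -0.92 for PUP1, -0.84 for RPT2, -0.70 for RPN3, -0.57 for UMP1, -0.56 for BLM10 and 0.45 for RPN4 on the log2 scale.

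For Alpha1 minus T210A, 27 members were called, where 10.9% of all genes were higher and 9.41% lower. The differences were 0.85 for PRE10, 0.91 for PUP1, 0.93 for RPT2, 0.85 for RPN7, 0.65 for UMP1, 0.95 for BLM10 and -0.61 for RPN4. For Alpha1 minus Snf1, 1 member was called, BLM10 with 0.39, and 13.7% of all genes. The causes of these differences were not tested.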

How the results depend on the processing

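Some counts and medians of the members moved with the scaling of the arrays and with the arrays in the fit. Quantile normalization left 12 called members for low against high glucose in Snf1 (10 higher, 2 lower, median 0.0981) and 10 in Alpha1 (median 0.136), and centring the arrays left 12 (median 0.205) and 8 (median 0.183). Shares of all genes were not counted under these settings. Under the same settings the medians were -0.403 and -0.444 for the glucose comparison in T210A, -0.554 and -0.693 for T210A against Snf1 at low glucose, and -0.563 and -0.707 for the T210A minus Snf1 response. The median response of Alpha1 minus T210A was 0.576 after quantile normalization, and that of Alpha1 minus Snf1 was -0.0595 after centring. With only the groups compared in the fit, 9 members were called between glucose levels in Alpha1, and 0 both for Alpha1 against Snf1 at low glucose and for the response of Alpha1 minus Snf1, where limma over all arrays called 1 and an unadjusted p under 0.05 held for 2 members in each. Array weights gave a median of 0.221 for glucose in Alpha1, 2 called members for Alpha1 against Snf1 and 5 for Alpha1 against T210A at high glucose. With the replicate block 2 members were called for Alpha1 against Snf1 at low glucose, whose samples share only a number by the correlation check.

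Leaving out 1 array moved the member median between 0.211 and 0.27 for glucose in Snf1, 0.217 and 0.266 in Alpha1, -0.0152 and 0.0183 at high glucose for Alpha1 against Snf1, -0.0176 and 0.0307 at high glucose for Alpha1 against T210A, and -0.0325 and 0.0287 for the response of Alpha1 minus Snf1. The number called ran from 1 to 3 for Alpha1 against Snf1 at low glucose and from 0 to 1 for that response. Under quantile normalization RPN2 reversed for glucose in Alpha1 (-0.0116, adjusted p = 0.874), as did PDR3, which had not been called, for glucose in T210A (-0.293, adjusted p = 0.0387). Of the 396 member results, 396 stayed on their side of the threshold without chromosome VIII genes and with probe sets averaged, and 371 after quantile normalization. Leaving out chromosome VIII and averaging probe sets alter no value of a member, since each has 1 probe set and none lies there. Unchanged calls under these settings are therefore no check of the members. The replicate block changed no other call of a member between paired groups than those given in the text; for the 3 response differences it called 1, 28 and 28 members. Where no value shows it, the cause of a change was not tested. Planned counts of promoter motifs were not run, since no promoter sequence was used here. The 3 arrays per group limit the precision, and genes with small differences can fall on either side of the threshold.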

Other observations

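RPT5, RPN7, RPN5, RPT3 and RPT4 varied more between the high-glucose arrays of the Alpha1 strain than most members did. RPT5 read 8.35, 9.18 and 9.25, with replicate 1 below all other arrays of the series for this gene, and its SD of 0.503 was the highest of any member in any group. RPN5 read 8.53, 9.03 and 9.01, with an SD of 0.28. RPT3 read 9.16, 9.60 and 9.52 and RPT4 9.71, 10.13 and 10.09, with the lowest value again in replicate 1, as in RPN5. The median of the core genes on the same arrays lay between -0.0458 and 0.0518 relative to the Snf1 mean at high glucose. What sets this array apart in these genes was not tested.

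2 pairs of members are near neighbours, with 1 gene between them in the RefSeq gene table. RPT4 and RPN8 on chromosome XV have GCD1 between them, and in T210A against Snf1 at low glucose they differed by -0.65 ± 0.09 and -0.21 ± 0.14. PRE4 and RPN12 on chromosome VI have RET2 between them, and they differed by -0.72 ± 0.06 and -0.52 ± 0.07.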
